A study of Mus musculus with 72 samples.

Results

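The livers described here came from male C57BL/6J mice, an inbred laboratory strain, that ate a Western diet with a low isoleucine content (diet label WD Low Ile) or the control Western diet (WD Control). The 6 low isoleucine and 6 control libraries, 12 of the 72 libraries of the series, were taken by the class prefix B6M in the sample titles and by the diet label, and 14954 of 50307 listed genes had enough counts to be tested. The strain field spells the strain C56BL/6J, whereas the study's design text gives C57BL/6J. Both groups shared the Western diet background, 12 weeks on the diet and a 16 hour overnight fast before the liver was taken, so no library here stands for a mouse on standard chow or a fed mouse. The design text has the diets start at 6 weeks of age, while the treatment text gives 18 weeks for the start and the age field reads 18 weeks, so the age of the animals cannot be fixed from the labels. The amount of isoleucine in each diet is not in the labels. Of the other classes, B6 females (B6F), DBA/2J males (DBAM) and DBA/2J females (DBAF), each with 6 low and 6 control libraries treated in the same way, serve below for tests of a difference between classes. A group on a high isoleucine diet is mentioned once.

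Library totals ran from 13 to 48.8 (in units of 1e6 counts), with a median of 24.7. Xist, expressed from the inactive X chromosome of females, was at 0.313 CPM (counts per 1e6 counts) or less in all 12 libraries, and Ddx3y, a Y-linked gene, lay between 28.9 and 46.5 CPM. All 14 hepatocyte markers were measured and none passed edgeR's test in either direction, 0 also at an unadjusted p under 0.05 and 0 with DESeq2 (median log2 fold change -0.03). The labels do not say whether the 6 libraries of a group are 6 mice, so the p-values measure the spread between these libraries. Titles carry a number and a letter, and each number (2, 6 and 10 in the low group, 3, 7 and 11 in the control group) occurs with the letters N and R. In 11 of the 12 libraries the closest match by deviation from the group mean was the library with the same number. The correlations of these deviations between same-number libraries were -0.15 to 0.16. Deviations from a shared group mean are pulled below 0, so these values do not show that same-number libraries are unrelated. With title number as a block in limma voom, over all 72 libraries, the consensus correlation of same-number libraries of a class was 0.244. All 30 pairs of libraries within a group differed by more than counting noise (0.455 for noise alone). The median chi-square per gene was 1.66 to 7.08 in the 6 same-number pairs and 2.67 to 8.20 in the 24 others. A difference beyond counting noise cannot show that same-number libraries are independent. The main fit counted each library once, and a fit that treats same-number libraries as related is given beside it. Control library 1 (number 11, letter N) stood apart from the other controls, and results that depend on it are given with and without it.

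The liver is among the most sex-different organs of the mouse. Growth hormone reaches the male liver in pulses, which signal through the growth hormone receptor, the kinase JAK2 and the transcription factor STAT5B and keep a set of male-biased genes high and a set of female-biased genes low. Isoleucine is among the branched-chain amino acids, which mice cannot make. Shortage of an essential amino acid is known to be sensed through the kinase GCN2, which raises the transcription factor ATF4 and its target genes.

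With low isoleucine, 748 genes passed the test (5.0% of those tested, edgeR's quasi-likelihood test with Benjamini-Hochberg adjustment, threshold 0.05). Values with ± are log2 fold changes of low over control isoleucine with their SE, from 6 and 6 libraries, and levels are in CPM unless said otherwise. Of the 748, 260 were higher (1.74%) and 488 lower (3.26%), and 56 of the higher and 171 of the lower genes changed at least 2-fold. In 246 of the 748 the 6 low and 6 control values did not overlap, against 375 non-overlapping genes among all tested (2.51%). When libraries with the same title number were treated as related (limma voom with a title-number block), 238 genes passed. Leaving out 1 library gave 456 genes (without control library 6), 465 (without low library 2), 469 (without control library 4) or 497 (without low library 1), and 983 without control library 1. In none of the 23 alternatives did any of the 748 change sign, and 114 passed in every alternative.

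The gene lists were chosen with earlier results of these data known. Male-biased liver genes had the largest share of falls among the lists with at least 10 genes tested. Of the 32 listed, all measured, 19 were lower and 0 higher with low isoleucine (median log2 fold change -1.28, against -0.006 for all genes tested), 12 of them with the title-number block. The list also had falls in the other classes. In B6 females 13 of the 32 were lower and 1 higher (median -0.84), in DBA males 6 and 1 (-0.40) and in DBA females 2 and 1 (-0.37). Over all 14954 genes tested, 1690, 1526 and 996 were lower in these classes. Major urinary proteins, small lipocalins that male mice secrete from the liver into urine to carry pheromones, had 7 of 19 measured members lower and 0 higher (median -1.57), and 5 with the block. The median was -1.03 with the block and -0.95 without control library 4. Of the 7, Mup3, Mup17, Mup20 and Mup21 stand on the male-biased list too. These genes form a large family of near-identical copies, so the split of reads among them is uncertain. Of the 19, 5 were lower in B6 females, 3 in DBA females and 1 in DBA males, with 0 higher in each. Mup21 (chromosome 4 from 62147932 to 62150863, GRCm38) was at 82, 156, 165, 194, 159 and 132 CPM in control libraries 1 to 6 and at 33.1, 20.9, 27.9, 28.8, 12.9 and 38.6 CPM in low libraries 1 to 6. No low library reached the lowest control, and Mup21 fell with a log2 fold change of -2.45 ± 0.32 (SE, n = 6 and 6, adjusted p = 5.2e-07, lower in 6 of 6). Mup17 (chromosome 4 from 61591929 to 61595871) was at 16.3, 97, 300.4, 342, 315 and 149 CPM in the controls and at 4.32, 5.41, 2.08, 1.63, 3.98 and 14.5 CPM with low isoleucine. Its lowest value among controls was that of control library 1 and its highest value with low isoleucine that of low library 6, and the groups were still apart (-5.24 ± 0.70, adjusted p = 7.6e-07). Mup15, at 36.7, 453, 700.2, 959, 549.9 and 274 CPM in the controls and 19.4, 32.4, 12.6, 8.15, 15.6 and 94.1 CPM with low isoleucine, overlapped only through control library 1 and low library 6 (-4.02 ± 0.74, adjusted p = 0.00037). Mup20, whose product darcin is a male sex pheromone, fell from between 3831 and 10238 CPM to between 1263 and 2570 CPM (-1.91 ± 0.39, adjusted p = 0.0014). Mup14 (-2.67 ± 0.70) and Mup8 (-2.11 ± 0.54) were lower too, with adjusted p of 0.053 and 0.058 when control library 4 was left out. The block ended the call for Mup14 (adjusted p = 0.077).

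The promoters of 4 genes that fell are shown because they match the letters searched for the D-box type. D-boxes are bound by DBP, and the values of its gene stand with the clock genes. The D-box type was searched as TTATGNAA on both strands of the 250 bases before each start in RefSeq (GRCm38.p6), and its matches are in capitals. Each run ends at the base before the start. Mup17 (chr4:61595833-61596082, minus strand) and Mup15 (chr4:61439705-61439954, minus strand) share an identical run of 178 bases that holds the match. C9 (chr15:6445096-6445345, plus strand) has it on the other strand, and Per3 (chr4:151044666-151044915, minus strand), a clock gene, has 2 matches.
Mup17: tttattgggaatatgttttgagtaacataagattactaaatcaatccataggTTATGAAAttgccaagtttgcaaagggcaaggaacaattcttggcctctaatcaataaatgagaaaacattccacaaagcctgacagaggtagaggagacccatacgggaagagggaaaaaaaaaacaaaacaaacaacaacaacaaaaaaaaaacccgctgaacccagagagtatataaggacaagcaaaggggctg
Mup15: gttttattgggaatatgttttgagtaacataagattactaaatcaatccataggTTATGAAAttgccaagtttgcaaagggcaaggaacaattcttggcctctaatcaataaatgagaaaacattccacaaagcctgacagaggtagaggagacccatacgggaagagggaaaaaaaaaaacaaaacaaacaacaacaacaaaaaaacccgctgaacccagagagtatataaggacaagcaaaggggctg
C9: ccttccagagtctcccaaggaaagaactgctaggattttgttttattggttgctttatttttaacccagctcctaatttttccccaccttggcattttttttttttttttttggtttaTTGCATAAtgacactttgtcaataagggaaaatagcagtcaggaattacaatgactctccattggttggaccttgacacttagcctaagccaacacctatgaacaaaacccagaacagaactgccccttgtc
Per3: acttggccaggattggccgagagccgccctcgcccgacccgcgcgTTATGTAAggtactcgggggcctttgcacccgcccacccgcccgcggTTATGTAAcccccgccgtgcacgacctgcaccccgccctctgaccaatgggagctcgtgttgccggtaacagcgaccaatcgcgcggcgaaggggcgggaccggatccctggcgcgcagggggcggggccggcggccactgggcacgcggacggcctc

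The match starts 198 bases before the start in Mup17, 196 in Mup15, 132 in C9, and 205 and 158 in Per3. Its letters were TTATGAAA in Mup17 and Mup15 and TTATGTAA in Per3. The N of the search allows any base, and whether DBP binds each of these forms was not tested. The D-box type is held by 3.07% of all 32851 promoters listed. Of 378 genes that fell and had a promoter in the table, 15 (3.97%) held it in at least 1 promoter, of 175 that rose 6 (3.43%), and of 11021 tested genes 285 (2.59%). The STAT5 type, TTCNNNGAA, was found for 29 of the 378 (7.67%), 7 of the 175 (4.0%) and 818 of the 11021 (7.42%). By list, the D-box type was found for 10 of 12 major urinary protein genes with a promoter in the table, a family of near-identical copies, for 5 of 23 male-biased genes and for 4 of 26 female-biased genes. Of the 5, Mup7, Mup11 and Mup17 are major urinary protein genes. The STAT5 type was found for 0 of the 12, 3 of the 23 and 4 of the 26, and for 5 of 20 growth hormone signalling genes. The D-box type was 1 of 5 types searched, and a match describes letters in a window and does not show binding.

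Among the other male-biased genes, Hsd3b5, a steroid dehydrogenase found almost only in male liver, was at 1.49, 84.5, 27.9, 169, 89.1 and 83.6 CPM in the controls and 12.2, 11.4, 7.04, 6.25, 1.67 and 6.48 CPM with low isoleucine. Control library 1 was below the lowest treated library, the other 5 controls lay above all 6 treated libraries, and Hsd3b5 had a log2 fold change of -3.32 ± 0.63 (adjusted p = 0.00058, 0.091 with the title-number block and 4.9e-05 without control library 1). C9, a part of the complement membrane attack complex that is male-biased in mouse liver, was at 316, 422, 410.4, 428, 326 and 288 CPM in the controls and 139.9, 133, 148, 129, 92.8 and 152 CPM with low isoleucine, with no overlap (-1.46 ± 0.19, adjusted p = 4.6e-07). C6, another part of that complex, ranged over 113 to 272 CPM in the controls and 50.1 to 101 CPM with low isoleucine (-1.40 ± 0.25, adjusted p = 0.00025). Nudt7, a peroxisomal hydrolase of coenzyme A, fell by 1.48 ± 0.25, Ugt2b38, a UDP-glucuronosyltransferase, by 3.01 ± 0.61, Selenbp2, a selenium-binding protein, by 2.76 ± 0.56, and Cyp7b1, an oxysterol hydroxylase, by 1.35 ± 0.37. The call for Cyp7b1 was lost without control library 4, its highest control (adjusted p = 0.13), without low library 5 and with the block (adjusted p = 0.099). Moxd1, a monooxygenase-like gene, was at 0.0439, 0.334, 19.3, 38, 0.917 and 0.148 CPM in the controls and at 0, 0.0246, 0, 0, 0 and 0 CPM with low isoleucine. Its level thus rested on control libraries 3 and 4, which share the title number 3, and its fall (adjusted p = 0.0059) was lost with the block (adjusted p = 0.31). It had 1 count in all low libraries together and 2110 in the controls, a ratio of 2440 after scaling by depth (95% interval 437 to 96400, counting error only).

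Of 34 female-biased liver genes, all measured, 8 were higher and 1 lower (median 0.65), 5 higher with the block. Cyp2b9, a cytochrome P450 of female liver with near-identical neighbours, was at 0.0879, 0.501, 0, 0.186, 0.0834 and 8.99 CPM in control libraries 1 to 6 and at 52.6, 22.2, 38.9, 77.9, 39.8 and 13.2 CPM in low libraries 1 to 6. Only control library 6 came near the treated range, and the groups did not overlap (4.69 ± 0.96, adjusted p = 0.0014, higher in 6 of 6). The call for Cyp2b9 was lost when only the 18 B6M libraries were fitted. Control females of the same strain had 515 ± 109.9 CPM (SD, n = 6), so the treated males lay between control males and control females. Sult1e1, which inactivates estrogens by adding sulfate, rose from 0.132, 0.0418, 0.654, 0.0207, 0.25 and 0.296 CPM to 2.95, 3.17, 2.19, 4.89, 1.45 and 8.16 CPM. For Sult1e1 the log2 fold change was 4.42 ± 0.85, adjusted p = 0.00077. Every treated library was above every control, but the control levels rest on few counts and the call was lost with the block (adjusted p = 0.12). Slco1a4, which carries organic anions into cells, measured 84.1, 78.4, 61.4, 34.1, 72.4 and 90.8 CPM in the controls and 210.4, 211, 198, 178, 116 and 207 CPM with low isoleucine. The groups did not overlap for Slco1a4, and the log2 fold change was 1.41 ± 0.29, adjusted p = 0.0017. This gene was above the mean of B6 control females (128 ± 57.8 CPM) in 5 of 6 treated libraries. Vldlr, the very low density lipoprotein receptor, rose by 1.82 ± 0.44 and Cyp39a1, which hydroxylates an oxysterol, by 1.14 ± 0.32, the latter with an adjusted p of 0.073 without control library 4. Ntrk2, a neurotrophin receptor, was the member that fell (-2.30 ± 0.37, adjusted p = 4.4e-05, 0.07 with the block).

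**Figure D1:**
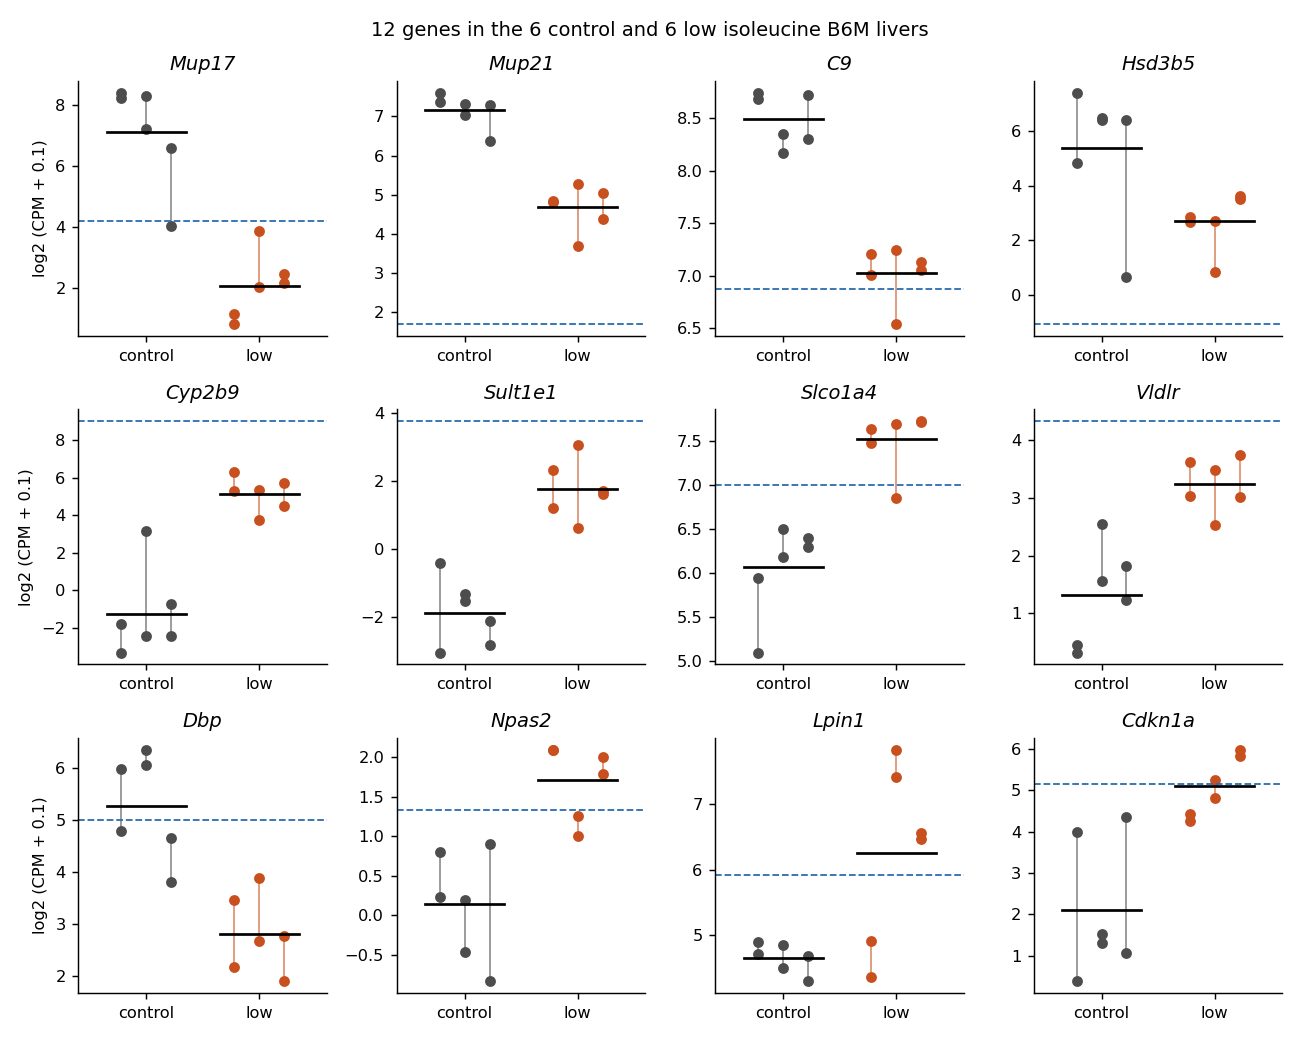
Level of 12 genes in each library, as log2 of CPM plus 0.1 on the vertical axis, for the 6 control (grey) and 6 low isoleucine (orange) B6M livers. Points joined by a thin line share a title number, the black bar is the mean of the 6 values, and the dashed blue line is the mean CPM of the 6 B6 control females. Mup17, Mup21 and C9 lie lower in every treated library, Cyp2b9, Sult1e1 and Slco1a4 higher, while in Lpin1 the low libraries with the title number 2 lie at the level of the controls.

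To describe sex-biased genes with a set chosen in other mice, the genes that differed at least 2-fold between male and female DBA/2J mice on the control diet were taken. At any fold 3849 genes differed (25.7% of those tested), 544 were at least 2-fold higher in males (3.64%) and 419 in females (2.80%). None of those libraries enters the B6M comparison. Of the 544 male-biased genes 105 fell and 2 rose with low isoleucine in B6 males (19.3% and 0.368%; median log2 fold change -0.52), and 419 of the 544 had a negative fold change. Of the 419 female-biased genes 35 rose and 7 fell (8.35% and 1.67%; median 0.17), with 20, 23 and 23 rises when control library 4, 5 or 6 was left out. Seen from the other side, 105 of the 488 genes that fell were male-biased (21.5%) and 7 female-biased, and 35 of the 260 that rose were female-biased (13.5%) and 2 male-biased. Among genes that changed at least 2-fold the shares were larger, with 79 of 171 falls in male-biased genes (46.2%) and 23 of 56 rises in female-biased genes (41.1%). The same holds in direction with the title-number block, where 52 male-biased genes fell and 1 rose, and 18 female-biased genes rose and 3 fell. Without control library 1, 130 male-biased genes fell and 46 female-biased genes rose. In B6 females on low isoleucine, a comparison that shares no library with the choice, the medians of the male-biased and female-biased sets were -0.45 and 0.03. There 122 of the 544 male-biased genes fell and 7 rose, and of the 419 female-biased genes 47 rose and 40 fell. Over all 14954 genes tested, 1690 fell and 1425 rose in B6 females.

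By library, the median level of the 544 male-biased genes relative to the mean of the controls (log2 of CPM plus 0.1) was -0.231, 0.037, 0.011, 0.056, 0.051 and 0.136 in control libraries 1 to 6 and -0.286, -0.269, -0.438, -0.473, -0.503 and -0.275 in low libraries 1 to 6. Control library 1 was thus close to the treated libraries, though still above all of them. Summed over the set, the controls had 39580 to 55300 CPM and the low isoleucine libraries 21240 to 28490 CPM. For the 419 female-biased genes the sum was 17450 to 25800 CPM in the controls and 26690 to 32720 CPM with low isoleucine, again without overlap, but the medians of both groups overlapped (-0.110 to 0.132 and 0.1 to 0.390).

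**Figure D2:**
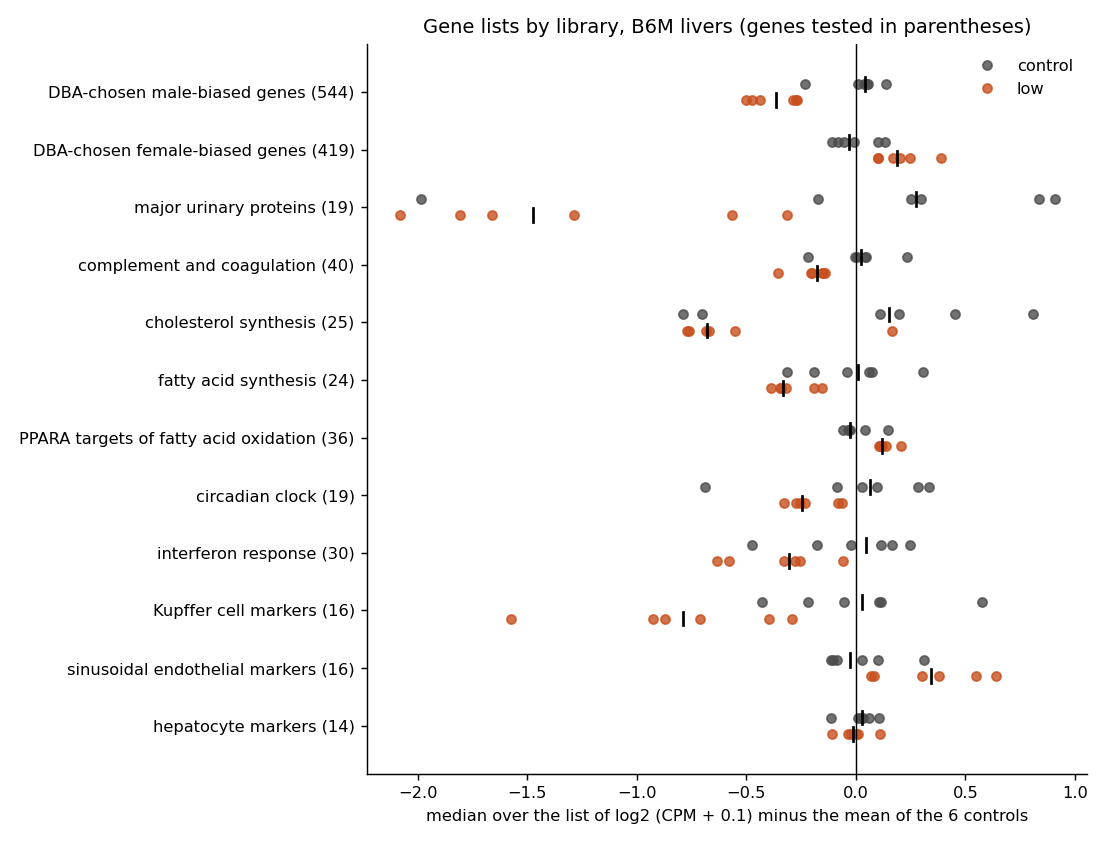
Each point is 1 library: the median over a gene list of log2 CPM plus 0.1 minus the mean of the 6 controls, for controls (grey) and low isoleucine (orange), with a black bar at the group median and the number of genes in parentheses. The male-biased set separates the groups with control library 1 nearest to the treated libraries, hepatocyte markers overlap around 0, and cholesterol synthesis spreads widely in the controls.

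Of the 23 genes of growth hormone signalling, 3 were higher and 1 lower (median 0.16 on the log2 scale), 2 and 0 with the block. The count of 3 higher became 1 without control library 2 or 4 or low library 3 or 4, and that of 1 lower became 2 without control library 1 or 3. Ghr, the receptor, was at 194, 371, 294, 382, 355 and 365 CPM in the controls and 246, 257, 219, 233, 192 and 205 CPM with low isoleucine. Without control library 1 the groups did not overlap, and Ghr fell by 0.54 ± 0.12 (adjusted p = 0.0039, 0.00017 without that library, 0.053 with the block). Stat5b rose from between 31.3 and 39.6 CPM to between 39.8 and 53 CPM with no overlap (0.42 ± 0.10, adjusted p = 0.0078). Tox, a DNA-binding protein that is female-biased in liver, rose by 0.74 ± 0.22 (adjusted p = 0.035, 0.092 without control library 1, 0.061 with the block). Lepr, the leptin receptor, was at 103, 19.2, 21.1, 18.2, 32.7 and 8.65 CPM in the controls and 69.5, 66.7, 155, 126, 103 and 73.9 CPM with low isoleucine. Control library 1 lay inside the treated range of Lepr, and the log2 fold change was 1.55 ± 0.47, adjusted p = 0.04, 0.0015 without that library and 0.11 without control library 6. Of the feedback and target genes, Igf1, the circulating growth factor made under growth hormone, was lower than the control mean in 6 of 6 libraries but did not pass (-0.36 ± 0.16, adjusted p = 0.21). Socs2, a feedback inhibitor of the receptor, was at -0.07 ± 0.50, with controls from 8.09 to 66.6 CPM and treated libraries from 9.12 to 76.6 CPM. Bcl6, a repressor that is higher in male liver (-0.83 ± 0.63, adjusted p = 0.5), and Cux2, a repressor of female liver (2.00 ± 0.74, adjusted p = 0.1), did not pass either.

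Complement and coagulation genes, which hepatocytes secrete, had 9 of 40 measured members lower and 0 higher (median -0.18). With the block 4 were lower, C9, C6, C8a and Cfi. C9, C6 and C8a stand on the male-biased list too. Besides C9 and C6, C8a fell from between 383 and 643 CPM to between 189.7 and 268 CPM with no overlap (-1.11 ± 0.21, adjusted p = 0.00072), so 3 genes of the membrane attack complex were lower. Cfi, the protease that inactivates complement C3b, was at 473, 582, 413, 411, 399.5 and 437 CPM in the controls and 314, 315, 329.8, 366, 294 and 337 CPM with low isoleucine. For Cfi the log2 fold change was -0.47 ± 0.09, adjusted p = 0.001. C4a, a male-biased copy of complement component 4 that is not on this list, fell by 1.94 ± 0.33 (adjusted p = 0.00011) and was highest in control library 4. Cfd, or adipsin, a protease known mainly from fat, was at 0, 0.376, 2.61, 0.951, 9.71 and 2.03 CPM in the controls and 0.0697, 0.148, 0, 0.0906, 0 and 0 CPM with low isoleucine, and its call was lost without control library 5 (adjusted p = 0.065) and with the block (adjusted p = 0.39). Of the acute phase genes, those that the liver makes in inflammation, 4 of 28 were lower and 0 higher (median -0.19), 1 with the block. Saa1, a serum amyloid A, ranged over 19.3 to 335 CPM in the controls and 6.52 to 16.5 CPM with low isoleucine (-3.45 ± 0.81, adjusted p = 0.0062, 0.085 with the block), and Saa2, a near copy, over 12 to 218 and 2.67 to 10.5 CPM (-3.76 ± 0.93, adjusted p = 0.13 with the block). Controls with the title numbers 11 and 3 held the higher Saa1 values and both controls with the number 7 the lowest. Orm1, orosomucoid, fell by 0.76 ± 0.19 (adjusted p = 0.0084) and Saa4 by 0.83 ± 0.20 (adjusted p = 0.008, 0.085 with the block).

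**Figure D3:**
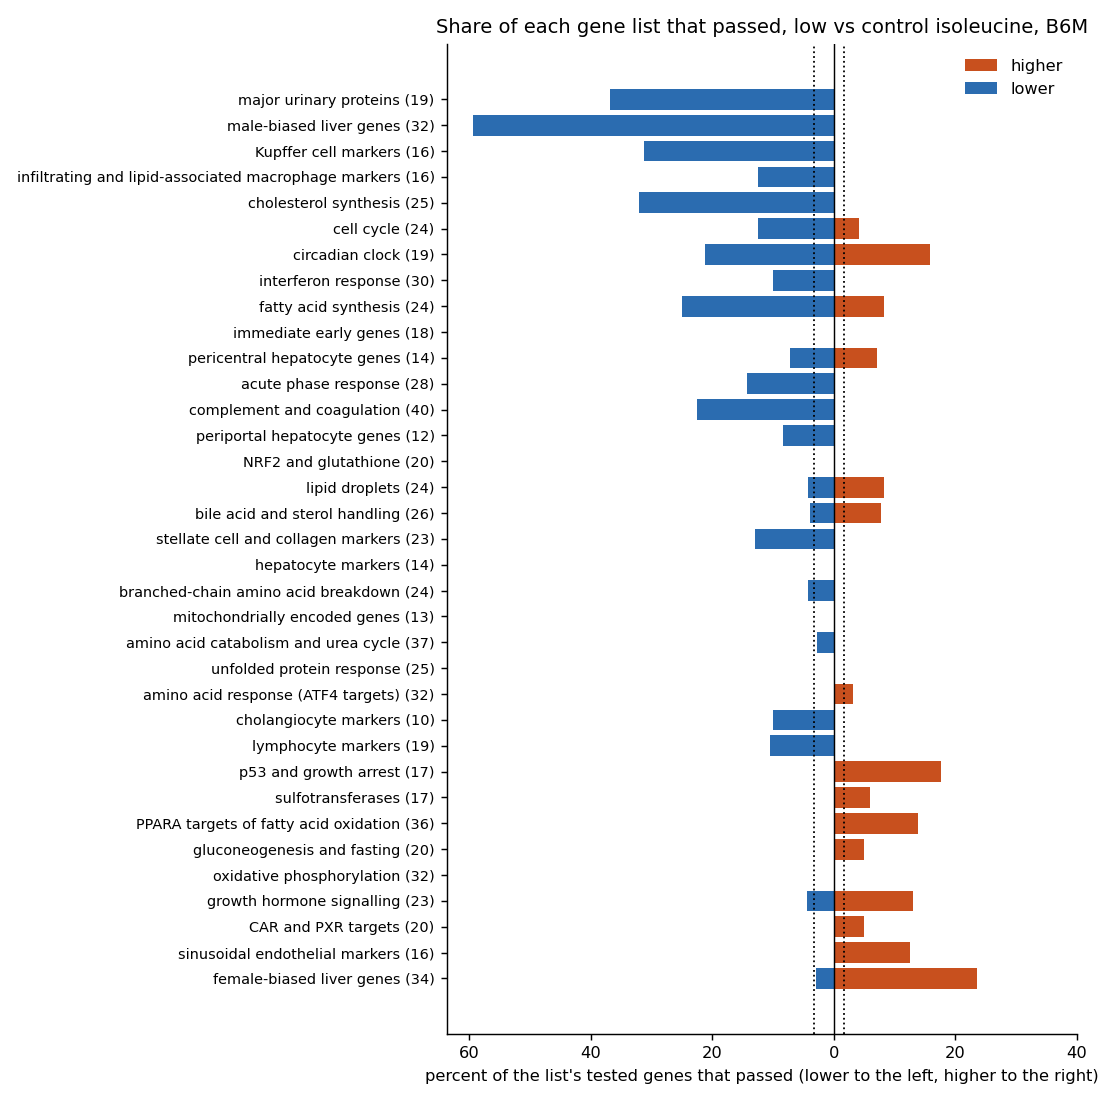
Percent of the tested genes of each list that passed the test with low isoleucine, lower to the left (blue) and higher to the right (orange), for lists with at least 10 genes tested, sorted by median log2 fold change. Dotted lines mark the shares over all genes tested (3.26% lower, 1.74% higher), male-biased liver genes reach 59.4% lower, and female-biased genes 23.5% higher.

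Of 25 genes of cholesterol synthesis 8 were lower and 0 higher, all 25 fold changes were negative, and the median was -0.62; with the block Stard4 alone passed. Leaving out control library 2 left 2 and leaving out low library 6 gave 15, and 7 other leave-outs gave 4 or 5. Stard4, which carries sterols inside cells, was at 38.4, 89.2, 17.6, 73.5, 30.6 and 61.8 CPM in the controls and 11.8, 19, 21.5, 17.6, 24.1 and 38.8 CPM with low isoleucine. For Stard4 the log2 fold change was -1.23 ± 0.26, adjusted p = 0.0017. Control libraries 1, 3 and 5 lay inside the treated range. Fdft1, squalene synthase, fell by 0.66 ± 0.15 (adjusted p = 0.0035), and Sc5d, a late desaturase of the pathway, by 0.59 ± 0.15 (adjusted p = 0.0095, 0.056 without control library 2). Nsdhl (-1.14 ± 0.31), a sterol dehydrogenase, and Acat2 (-0.47 ± 0.13), which joins acetyl-CoA units, had adjusted p of 0.084 and 0.11 without that library. Their calls were lost in 5 and 4 of the 12 leave-outs. Fatty acid synthesis had 6 of 24 genes lower and 2 higher (median -0.33), 2 lower and 0 higher with the block, 2 lower without low library 2, and 3 without control library 4, 5 or 6 or low library 1 or 5. The 2 higher became 1 in 9 of the 12 leave-outs. Slc25a1, the mitochondrial citrate carrier, fell from between 126 and 153 CPM to between 98.5 and 113 CPM with no overlap (-0.41 ± 0.09, adjusted p = 0.0025), and Fads2, a desaturase of polyunsaturated fatty acids, fell by 0.61 ± 0.15 (adjusted p = 0.0078). Elovl6, an elongase, was at -0.60 ± 0.17 (adjusted p = 0.021, 0.066 without low library 1) and Thrsp, a lipogenic nuclear protein, at -1.82 ± 0.53 (adjusted p = 0.029, 0.16 without control library 6). Neither passed with the block (adjusted p = 0.075 and 0.23). Elovl6 lost its call in 4 of the 12 leave-outs and Thrsp in 6. Scd1, the stearoyl-CoA desaturase, ranged over 2707 to 14596 CPM in the controls and 1188 to 6099 CPM with low isoleucine and did not pass (-1.34 ± 0.50, adjusted p = 0.11). Neither did Fasn, fatty acid synthase (-0.50 ± 0.24, adjusted p = 0.23), nor Srebf1, their regulator (-0.74 ± 0.29, adjusted p = 0.13). Lpin1, a phosphatidate phosphatase that also acts as a coactivator in fasting, was at 25.7, 19.7, 29.9, 26.4, 22.7 and 29 CPM in the controls and 88.1, 93.8, 30.1, 20.7, 169.9 and 226 CPM with low isoleucine. For Lpin1 the log2 fold change was 2.04 ± 0.46, adjusted p = 0.0044, 0.078 with the block. The rise lay in the libraries with title numbers 10 and 6, while those with the number 2 were at control levels.

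Lipid droplet genes had 2 of 24 higher and 1 lower (median -0.07), 1 and 0 with the block and 3 and 2 without control library 1. Cidea, a droplet protein induced in fatty liver, was at 0.176, 3.72, 4.74, 0.455, 4.96 and 2.67 CPM in the controls and 0.163, 0.0984, 0.0521, 0.226, 0.0453 and 0.142 CPM with low isoleucine. For Cidea the log2 fold change was -4.37 ± 0.78, adjusted p = 0.00026, 0.42 with the block. Control libraries 1 and 4 were near the treated level and the other 4 controls above it. Plin5, which ties droplets to mitochondria, rose from between 53.9 and 108 CPM to between 110.1 and 150.1 CPM with no overlap (0.72 ± 0.18, adjusted p = 0.011, 0.051 with the block), and Cidec was at -0.16 ± 0.42 (adjusted p = 0.89). Of 36 targets of PPARA, the fasting-activated regulator of fatty acid oxidation, 5 were higher and 0 lower (median 0.12), 1 with the block, Ehhadh, and 2 or 3 in 9 of the 12 leave-outs. Cyp4a10, an omega-hydroxylase with similar copies, was at 5094, 5216, 6140, 4269, 5152 and 5025 CPM in the controls and 6708, 6593, 7289, 7927, 7857 and 8012 CPM with low isoleucine. The groups did not overlap for Cyp4a10, and the log2 fold change was 0.52 ± 0.13, adjusted p = 0.0086, 0.061 with the block. Eci2 (0.30 ± 0.08) and Ehhadh (0.73 ± 0.21), enzymes of fatty acid oxidation, Pdk4 (1.44 ± 0.43), the kinase that limits pyruvate oxidation, and Acot1 (0.69 ± 0.21), an acyl-CoA thioesterase, passed with adjusted p of 0.019, 0.031, 0.035 and 0.037. The call for Eci2 was lost in 2 of the 12 leave-outs, that for Ehhadh in 5, for Pdk4 in 9 and for Acot1 in 10. Their adjusted p went up to 0.062 (low library 1), 0.11 (control library 6), 0.098 (control library 5) and 0.086 (low library 3). In gluconeogenesis and fasting 1 of 20 genes was higher, Slc37a4, the glucose-6-phosphate transporter (0.81 ± 0.18, adjusted p = 0.0035), while Pck1, the rate-limiting enzyme, was at 0.03 ± 0.19 (adjusted p = 0.96). Without control library 1, 3 of the 20 were higher. Cyp7a1, the rate-limiting enzyme of bile acid synthesis, was at -0.46 ± 0.41 (adjusted p = 0.58).

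Few genes of the lists tied to amino acids passed. Of 32 measured ATF4 targets 1 was higher, Vldlr, which is also on the female-biased list, and 0 lower (median 0.01). Without control library 1 the counts were the same and the median was 0.15. That library had the highest summed level of these targets among the controls (2534 CPM). Asns, asparagine synthetase, was at 18.6, 3.26, 9.72, 4.94, 1.08 and 0.445 CPM in the controls and 4.46, 14.8, 9.49, 9.1, 4.21 and 12 CPM with low isoleucine (0.52 ± 0.58, adjusted p = 0.69), and the control libraries alone spread over a wider range than the treated ones. Trib3, a pseudokinase induced by ATF4, was at 0.34 ± 0.25 (adjusted p = 0.49), and the hormones Fgf21 (0.38 ± 0.41, adjusted p = 0.67) and Gdf15 (-0.10 ± 0.59, adjusted p = 0.96) did not pass. Of 24 genes of branched-chain amino acid breakdown 1 was lower, Acadsb, the dehydrogenase of the isoleucine branch (-0.35 ± 0.10, adjusted p = 0.028). This call was lost with the block (adjusted p = 0.11) and in 5 of the 12 leave-outs (up to 0.094, without control library 2). Its values were 95.6, 119, 85.5, 102, 97.9 and 105 CPM in the controls and 84.8, 83.2, 78.2, 82, 68.2 and 80.1 CPM with low isoleucine, with no overlap. Bckdhb, a subunit of the dehydrogenase that commits branched-chain keto acids to breakdown, was at 0.26 ± 0.11 (adjusted p = 0.18). Among 37 genes for breaking down amino acids and making urea 1 was lower, Otc, ornithine transcarbamylase (-0.50 ± 0.12, adjusted p = 0.0058). Without control library 1, 1 of the 37 was higher and 1 lower, and the median was 0.13, against -0.01 with it. None passed among 25 genes of the unfolded protein response, 32 of oxidative phosphorylation, 20 of the NRF2 and glutathione list, 18 immediate early genes and 13 mitochondrially encoded genes. At an unadjusted p under 0.05 in edgeR these lists held 2, 9, 4, 5 and 0 genes, and DESeq2 called 0 in each. Without control library 1, 4 of the 32 oxidative phosphorylation genes were higher (median 0.19, against 0.15 with it).

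Of 19 genes of the circadian clock 3 were higher and 4 lower (median -0.38), 2 and 1 with the block, with 1 lower without control library 5 and 2 without control library 4 or 6 or low library 1, 2 or 5. The count of 3 higher became 1 in 8 of the 12 leave-outs. The time of day of each liver is not in the labels. Dbp (chromosome 7 from 45705088 to 45710203), an output factor of the clock that binds D-boxes, was at 13.9, 25.1, 27.5, 63.5, 81.9 and 66.3 CPM in the controls and 6.67, 3.62, 10.9, 4.39, 6.29 and 14.7 CPM with low isoleucine. For Dbp the log2 fold change was -2.59 ± 0.47, adjusted p = 0.00037. Control library 1 was below the highest treated library, and the other 5 controls were above all treated ones. Npas2, an activator of the clock, rose from between 0.459 and 1.76 CPM to between 1.9 and 4.17 CPM with no overlap (1.61 ± 0.38, adjusted p = 0.0064). The repressor genes Bhlhe41 (-1.72 ± 0.44, adjusted p = 0.011), Per3 (-1.48 ± 0.43, adjusted p = 0.029) and Nr1d1 (-1.09 ± 0.32, adjusted p = 0.031) fell. Their adjusted p reached 0.068 without control library 5, 0.079 without control library 6 and 0.099 without control library 4, and it was 0.13, 0.22 and 0.18 with the block. The call for Bhlhe41 was lost in 1 of the 12 leave-outs, that for Per3 in 8 and that for Nr1d1 in 6. In these 3 genes control library 1 was the lowest of the controls.

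Cell cycle genes had 3 of 24 measured members lower and 1 higher (median -0.55), 1 and 1 with the block, and 5 lower without control library 3. E2f1, a transcription factor of entry into DNA replication, fell from between 0.791 and 2.13 CPM to between 0.272 and 0.679 CPM with no overlap (-1.44 ± 0.32, adjusted p = 0.0032). Ccne1, cyclin E1, was at -1.58 ± 0.39 (adjusted p = 0.0085, 0.07 without control library 5), and Ccnb1, cyclin B1, at -3.17 ± 0.73 with 0.0417 to 0.919 CPM in the controls and 0 to 0.0712 CPM with low isoleucine, levels of few counts. Neither cyclin passed with the block (adjusted p = 0.085 for Ccne1 and 0.14 for Ccnb1). Cdkn1a, the cyclin-dependent kinase inhibitor, was the member that rose, from 20.3, 2, 15.9, 1.2, 2.79 and 2.37 CPM in the controls to 63.3, 56.8, 21.4, 19, 37.8 and 28.3 CPM with low isoleucine. For Cdkn1a the log2 fold change was 2.41 ± 0.60, adjusted p = 0.011. Control libraries 1 and 3 lay at the level of the lowest treated libraries. Gadd45g, a growth arrest gene, rose by 2.33 ± 0.64 (adjusted p = 0.021, 0.11 without low library 3, 0.09 with the block). Spc25, a kinetochore protein, fell from between 3.02 and 6.14 CPM to between 0.926 and 2.5 CPM (-1.53 ± 0.24, adjusted p = 2.5e-05).

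Among markers of other liver cells, 5 of 16 Kupffer cell markers were lower and 0 higher (median -0.82), 0 with the block, 0 without control library 5 or low library 1, and 1 or 2 in 5 other leave-outs. In a bulk tissue, fewer cells of a type and less RNA per cell cannot be told apart. Clec4f, a lectin of resident Kupffer cells, was at 50.1, 68.3, 56.6, 66.9, 82.2 and 54.3 CPM in the controls and 27.8, 36.4, 30.7, 51.9, 48.8 and 40 CPM with low isoleucine. For Clec4f the log2 fold change was -0.69 ± 0.18, adjusted p = 0.018. The summed level of the 16 markers was 375.5 to 607.0 CPM in the controls and 233.7 to 376.1 CPM with low isoleucine, so the highest treated library lay just above the lowest control. Cd5l (-1.02 ± 0.30), a secreted macrophage protein, Folr2 (-1.11 ± 0.31), a folate receptor, Cd68 (-1.0 ± 0.29), a lysosomal protein, and Vsig4 (-0.88 ± 0.28), a complement receptor, also passed. These 5 calls were each lost on leaving out between 3 and 8 of the 12 libraries, with adjusted p up to 0.063, 0.11, 0.11 and 0.15 for Clec4f, Cd5l, Cd68 and Vsig4 (low library 1) and 0.089 for Folr2 (control library 5). None of 7 MHC class II genes and of the 4 measured neutrophil markers passed in edgeR (0 and 1 at an unadjusted p under 0.05) or DESeq2. Of 16 markers of infiltrating and lipid-associated macrophages 2 were lower (median -0.67), 0 with the block and 1 or 3 in 7 of the 12 leave-outs. Lyz2, lysozyme of myeloid cells, fell from between 33.2 and 64.1 CPM to between 12.6 and 28.1 CPM with no overlap (-1.13 ± 0.29, adjusted p = 0.014, 0.069 with the block). Trem2, a receptor of lipid-associated macrophages, was at -1.35 ± 0.37, but its call was lost without control library 1 among others (adjusted p = 0.22 without it), and the median of the list moved from -0.67 to -0.29 without that library.

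Of 23 stellate cell and collagen markers 3 were lower (median -0.04), 0 with the block, and 1 without control library 1 or 4 or low library 2 or 5, and 2 in 4 other leave-outs. Col3a1 was at 45.5, 30.2, 34.6, 35.9, 16.4 and 17.3 CPM in the controls and 16.9, 14.3, 16.7, 15.4, 9.64 and 14.4 CPM with low isoleucine. For Col3a1 the log2 fold change was -1.04 ± 0.26, adjusted p = 0.009, 0.031 without control library 1 and 0.072 with the block. Without control library 1, Col1a1 (-1.16 ± 0.32) had an adjusted p of 0.084 and Col1a2 (-0.73 ± 0.22) of 0.25. Col1a1 lost its call in 4 of the 12 leave-outs and Col1a2 in 8. Tff3, a secreted trefoil peptide of bile duct cells that hepatocytes can also make, was at 48.5, 8.9, 9.07, 14.7, 2.42 and 2.27 CPM in the controls and 0.395, 0.197, 1.67, 0.815, 0.0453 and 2.14 CPM with low isoleucine. The groups did not overlap for Tff3, and the log2 fold change was -4.08 ± 0.84, adjusted p = 0.0016, 0.012 without control library 1. The other 9 measured cholangiocyte markers did not pass. Igha, the constant region of immunoglobulin A made by plasma cells, fell from 4.66, 3.72, 1.06, 1.98, 4.5 and 2.08 CPM to 0.743, 0.713, 0.365, 0.724, 0.317 and 0.605 CPM. For Igha the log2 fold change was -2.34 ± 0.47, adjusted p = 0.001. Igkc, the kappa light chain, fell from between 6.54 and 13.7 CPM to between 1.97 and 5.03 CPM (-1.47 ± 0.44, adjusted p = 0.035, 0.096 without low library 2). That call was lost in 9 of the 12 leave-outs. Igkc and Cd4 (-1.34 ± 0.37, adjusted p = 0.022, 0.085 without control library 5), a T cell coreceptor that macrophages also carry, were the members of the lymphocyte list that passed, 2 of 19. The median of that list was 0.05, 9 of the 19 fold changes were negative, and 0 passed with the block (adjusted p = 0.1 for Igkc and 0.21 for Cd4). Leaving out 1 library gave between 0 and 4 lower, with 0 without control library 5 or low library 5 and 4 without control library 3. The adipose marker genes Adipoq, Retn, Plin1 and Lep were too low to test. Of the 3 adipose markers tested, Cfd and Car3 were lower and Fabp4 did not pass (log2 fold change 0.0). With the block 0 of these markers were lower. Car3, a carbonic anhydrase of fat and male liver, fell from between 229 and 3147 CPM to between 132 and 505 CPM (-2.11 ± 0.46, adjusted p = 0.0026, 0.062 with the block), with control library 1 inside the treated range. Of 16 sinusoidal endothelial markers 2 rose and 0 fell (median 0.35), 1 with the block and 1 in 9 of the 12 leave-outs. Ehd3 was at 33.1, 49.1, 40.5, 48.9, 43 and 38.1 CPM in the controls and 55.2, 62.9, 63.4, 71.2, 93.9 and 57.4 CPM with low isoleucine. The groups did not overlap for Ehd3, and the log2 fold change was 0.68 ± 0.14, adjusted p = 0.0012. Of 6 measured erythroid markers 1 was lower, Alas2, the first enzyme of heme synthesis in red cell precursors (-1.10 ± 0.22, adjusted p = 0.0011), while the other 5 had positive fold changes that did not pass (median of the list 0.47, 0.08 without low library 4). Of 12 periportal hepatocyte genes 1 was lower, Cyp2f2, a cytochrome P450 (-0.82 ± 0.16, adjusted p = 0.00072), and the median was -0.14. Pericentral hepatocyte genes had 1 of 14 higher, Axin2, a Wnt target (0.79 ± 0.19, adjusted p = 0.0057), and 1 lower (0 with the block, 2 without control library 1), and 10 of the 14 fold changes were negative (median -0.24). What part changes in cell numbers had in any other result was not tested.

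Several genes outside these lists passed as well. Dpy19l3, a glycosyltransferase of the endoplasmic reticulum, was at 2.9, 6.1, 3.02, 7.57, 5.42 and 5.63 CPM in the controls and 1.65, 1.52, 1.2, 1.81, 0.951 and 1.39 CPM with low isoleucine. For Dpy19l3 the log2 fold change was -1.85 ± 0.20, adjusted p = 3.3e-09. Gpc1, glypican 1, a cell surface proteoglycan, fell from between 23.8 and 54.5 CPM to between 5.73 and 11.2 CPM (-2.03 ± 0.27, adjusted p = 7.6e-07), and Srd5a1, a steroid 5-alpha-reductase that reduces testosterone, from between 55 and 97.8 CPM to between 33 and 40.4 CPM (-1.14 ± 0.17, adjusted p = 5.4e-06). Both were without overlap. Parp16, an ADP-ribosyltransferase of the endoplasmic reticulum, rose from 19.4, 16.9, 13.5, 14.7, 14.7 and 13.4 CPM to 34.9, 38.6, 23, 37.9, 24.1 and 24.6 CPM. For Parp16 the log2 fold change was 0.98 ± 0.13, adjusted p = 7.6e-07. Mcc, a regulator of the cell cycle and of Wnt signalling, rose from between 20.8 and 44.4 CPM to between 59.8 and 88.2 CPM (1.10 ± 0.17) and Tacc2, a centrosomal protein, from between 19.8 and 33.2 CPM to between 52.6 and 74.5 CPM (1.14 ± 0.17), each with an adjusted p of 1.2e-05. Dio3os, a noncoding RNA next to the gene of the deiodinase that inactivates thyroid hormone, rose from between 0.351 and 0.988 CPM to between 1.85 and 5.85 CPM (2.42 ± 0.37, adjusted p = 2e-05). Klf10, a transcription factor of the TGF-beta response, rose from between 6.78 and 15.6 CPM to between 20.7 and 38.8 CPM (1.21 ± 0.25, adjusted p = 0.0014). Zbtb16, a zinc finger factor, rose by 1.99 ± 0.56 (adjusted p = 0.025, 0.068 without control library 6). Except for Zbtb16, the genes of this paragraph passed in each leave-out, and they passed with the title-number block, again with the exception of Zbtb16.

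The effect of low isoleucine was then set against that in the other classes. Of the 488 genes that fell in B6 males, 246 also fell in B6 females (50.4% of the 488 and 14.6% of the 1690 that fell there, which are 11.3% of all tested). A fall was shared with DBA males by 210 (43.0%, and 13.8% of the 1526 there, 10.2% of all) and with DBA females by 114 (23.4%, and 11.4% of the 996 there, 6.66% of all). Of the 260 that rose, 92 rose in B6 females (35.4%, and 6.46% of the 1425 there, which are 9.53% of all tested). A rise was shared with DBA males by 140 (53.8%, and 12.5% of the 1118 there, 7.48% of all) and with DBA females by 59 (22.7%, and 7.72% of the 764 there, 5.11% of all). Of the falls 156, and of the rises 70, passed in the same direction in no other class. A gene that passed in B6 males alone is not shown to differ, so the difference itself was tested. The effect in B6 males differed from that in B6 females for 124 genes (0.829%; 43 more positive and 81 more negative in B6 males). It differed from that in DBA males for 239 (1.6%; 113 and 126) and from the mean of the other 3 classes for 144 (0.963%; 63 and 81). With the title-number block these counts were 3, 48 and 11. Without control library 5 the first was 63 and without control library 3 it was 69. The second was 136 without control library 4 or low library 6. The third fell to 60 without low library 6, and lay between 63 and 95 without control library 3, 4 or 5 or low library 1, 2, 4 or 5.

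Cyp2b9 had a log2 fold change of -0.25 in B6 females, -0.03 in DBA males and -0.14 in DBA females with low isoleucine, and the difference of B6 males from their mean was 4.83 ± 1.05 (adjusted p = 0.013, 0.038 with the block). Mup21 was at -0.56, -0.57 and 0.72 in those classes, and its fall in B6 males differed from their mean by -2.31 ± 0.37 (adjusted p = 0.00028, 0.0075 with the block). Mup17, which was near 0 in DBA males (0.04 ± 0.57), differed from them by -5.28 ± 0.87 (adjusted p = 0.00021, 0.0079 with the block). Mup15 and Saa1, at 1.85 ± 0.85 and 1.88 ± 0.75 there and past the threshold in neither case, differed by -5.88 ± 1.10 and -5.33 ± 1.10 (adjusted p = 0.16 and 0.18 with the block). Igha went down in B6 males and lay at 1.92 ± 0.72 in DBA males (difference -4.26 ± 0.84, adjusted p = 0.0021, 0.12 with the block). Dio3os rose in DBA males as well (2.05 ± 0.34) and was at -0.50 ± 0.31 in B6 females, and the difference between B6 males and females was 2.92 ± 0.49 (adjusted p = 0.0008, 0.063 with the block). Klf10 was at -0.64 ± 0.24 in B6 females (difference 1.85 ± 0.35, adjusted p = 0.004, 0.063 with the block). Parp16 rose in both female classes (0.66 ± 0.13 and 0.79 ± 0.13) and was at -0.15 ± 0.13 in DBA males, from which B6 males differed by 1.13 ± 0.19 (adjusted p = 0.00016, 0.0055 with the block). In the other direction, Mt2, a metallothionein, rose in B6 females (2.40 ± 0.51) and was at -0.64 ± 0.49 in B6 males (difference -3.04 ± 0.70, adjusted p = 0.018, 0.093 without control library 5, 0.34 with the block).

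**Figure D4:**
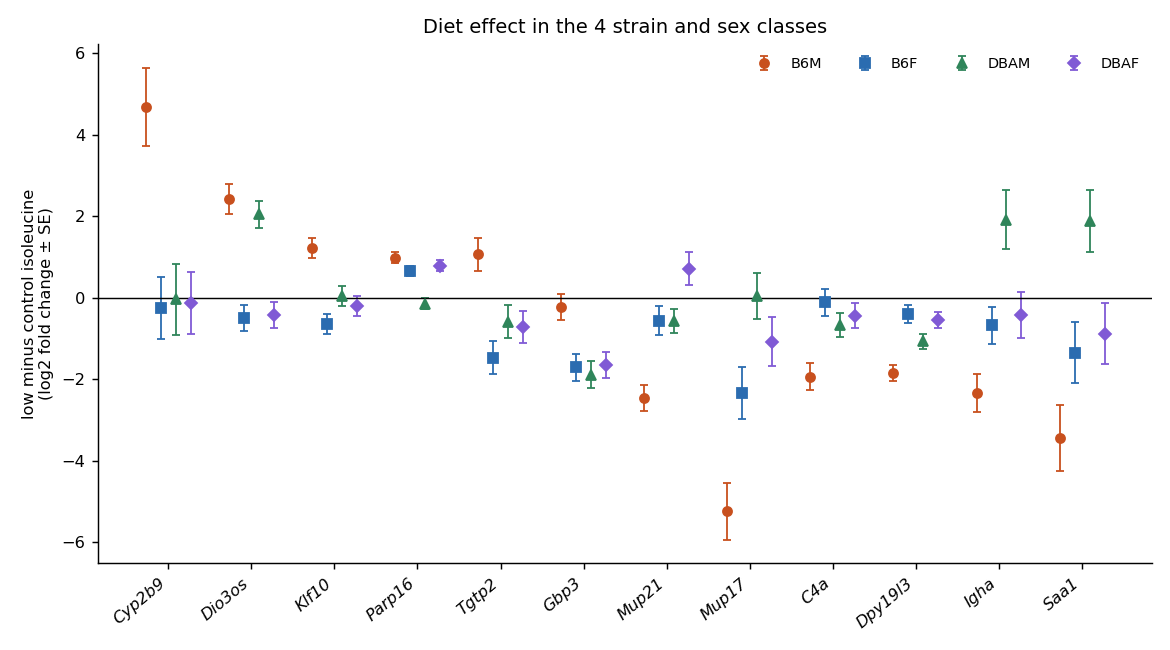
Log2 fold change of low over control isoleucine (vertical axis, bars show the SE) of 12 genes in B6 males (B6M), B6 females (B6F), DBA males (DBAM) and DBA females (DBAF), each from 6 low and 6 control libraries. Cyp2b9 lies above and Mup21 below the other 3 classes in B6M, and Gbp3 is lower in the other 3 classes and near 0 in B6M.

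Among interferon-response genes, the antiviral genes that interferon signalling switches on, 3 of 30 were lower and 0 higher in B6 males with low isoleucine (median -0.35). The 3 became 0 with the block, 0 without control library 6, 1 without control library 5 or low library 1, and 5 without control library 1. In B6 females 29 of the 30 were lower (median -1.26), in the DBA strain 28 in females (-1.28) and 27 in males (-1.07). The difference from the mean of these classes was positive past the threshold for 9 of the 30 members, against 63 of 14954 over all genes. Against B6 females alone it was positive for 2 of the 30 (43 of 14954 over all genes), and against DBA males for 5 (113 of 14954). The block was not applied to these list counts. Over all genes the block took the differences from the mean of the other classes from 144 to 11. Ifit1, which binds viral RNA, was at 5.58, 16.8, 13.4, 9.1, 17.8 and 22.8 CPM in the B6 male controls and 4.53, 6.89, 6.1, 7.97, 8.01 and 7.34 CPM with low isoleucine. For Ifit1 the log2 fold change was -1.07 ± 0.28, adjusted p = 0.015, 0.069 without control library 6. Oasl1, a related antiviral gene, was at -0.78 ± 0.21 (adjusted p = 0.021, 0.12 without the same library). Gbp3, a guanylate-binding protein, ranged over 3.69 to 8.3 CPM and 2.97 to 7.43 CPM. Its fold change was -0.23 ± 0.32 in B6 males, against -1.71 ± 0.32 in B6 females, -1.89 ± 0.33 in DBA males and -1.65 ± 0.32 in DBA females (difference from their mean 1.51 ± 0.38, adjusted p = 0.031, 0.072 without low library 2). Tgtp2, an interferon-induced GTPase, was above the control mean in 6 of 6 B6 male libraries (1.07 ± 0.40, adjusted p = 0.11) and fell in B6 females (-1.47 ± 0.40), a difference of 2.54 ± 0.57 (adjusted p = 0.016). With the block none of these differences of Gbp3 and Tgtp2 passed (adjusted p = 0.23 and 0.21).

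The high isoleucine diet was compared with the same control libraries, so its values are given only side by side. Cholesterol synthesis had a median log2 fold change of -0.62 with low and -1.05 with high isoleucine, and the male-biased list -1.28 and -0.12. Mup21 was at -2.45 ± 0.32 with low and -0.56 ± 0.30 with high isoleucine, C9 at -1.46 ± 0.19 and -0.27 ± 0.19, and Dio3os at 2.42 ± 0.37 and 1.69 ± 0.39.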

How the data were processed

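RNA was measured by sequencing in livers of 72 libraries in 12 groups of 6. The authors deposited expected counts per Ensembl gene on GRCm38.p5, per the labels and the submitters' processing notes, which also name R 3.4.3, edgeR and limma; the counting tool is not given in the sources used here. Reads were polyA-selected per a description field, while the extraction text cites a Total RNA guide. Of the nonzero deposited expected counts 9.56% were not whole, and they were rounded. Symbols and positions came from GENCODE vM21, promoters from RefSeq. 1 gene line was incomplete, leaving 50307 genes.

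All 72 libraries were fitted in 1 model (R 4.3.3, edgeR 4.0.16, filterByExpr, TMM, robust quasi-likelihood test, Benjamini-Hochberg adjustment, threshold 0.05). Fold changes are low minus control on the log2 scale with their SE; CPM are scaled by TMM, and library summaries use log2 of CPM plus 0.1. Alternatives used DESeq2 1.42.0, limma 3.58.1, other filters, scalings and fits, summed same-number libraries and each library left out. The fit was also run on simulated counts. They were drawn independently for each library, so that run cannot speak to same-number libraries being related. The genes named are among the 20 largest rises and falls with at least 1 CPM, the 10 lowest p-values in each direction, the 5 lowest of each list, the 5 largest differences between classes in each direction, and a fixed panel; some genes that this rule reaches are not reported here. The comparison, the 40 gene lists and the panel were chosen with earlier results of these data known.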

Additional observations from a re-analysis of the deposited data

Results flagged for a closer look

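In 23 of 230 groups of 6 values searched, for 115 named genes in each group, the highest or lowest library lay far from the other 5, that is, its gap to the nearest value was over 0.625 of the range. Chance flags about 5% of such groups when values are normally distributed. The search used CPM, whose distribution was not checked, so the 23 are not read as an excess. Control library 1 held Lepr at 103 CPM (others 8.65 to 32.7), Trem2 at 4.35 CPM (others 0.791 to 1.88), Col1a2 at 30.6 CPM (others 9.04 to 16.8), Tff3 at 48.5 CPM (others 2.27 to 14.7) and Saa4 at 78.4 CPM (others 162 to 210.0). Control library 4 had Ugt2b38 at 18.6 CPM (others 2.37 to 6.62), Selenbp2 at 176 CPM (others 16.6 to 75.9), Cyp7b1 at 372 CPM (others 93.6 to 181) and C4a at 49.3 CPM (others 7.51 to 19). Control library 5 stood apart with Cfd at 9.71 CPM (others 0 to 2.61). Control library 6 gave Cyp2b9 at 8.99 CPM (others 0 to 0.501). Low isoleucine library 2 showed Moxd1 at 0.0246 CPM (others 0 to 0). Low isoleucine library 3 carried Bhlhe41 at 1.41 CPM (others 0.543 to 0.836). Low isoleucine library 4 was set off by Cux2 at 11.5 CPM (others 0.641 to 3.23), E2f1 at 0.272 CPM (others 0.534 to 0.679) and Tacc2 at 74.5 CPM (others 52.6 to 59.3). Low isoleucine library 5 included Slco1a4 at 116 CPM (others 178 to 211) and Col3a1 at 9.64 CPM (others 14.3 to 16.9). Low isoleucine library 6 was marked by Mup17 at 14.5 CPM (others 1.63 to 5.41), Mup15 at 94.1 CPM (others 8.15 to 32.4), Mup20 at 2570 CPM (others 1260 to 1710), Fasn at 72.6 CPM (others 44.2 to 50.7) and Pdk4 at 23 CPM (others 55.9 to 74.1). Of the list medians, that of the male-biased genes was -0.231 in control library 1, and that of cholesterol synthesis 0.165 in low library 6.

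The effect of low isoleucine in B6 males also differed past the threshold (adjusted p under 0.05) from that in other classes for some of the named genes. All values are differences in log2 fold change, B6 males minus the other class. Against B6 females, the effect was more negative for Mup21 (-1.89), Dpy19l3 (-1.44), C4a (-1.83), Mt2 (-3.04) and Klf4 (-2.02), with adjusted p from 0.012 to 0.034. Against B6 females, the effect was more positive for Cyp2b9 (4.94), Tgtp2 (2.54), Dio3os (2.92) and Klf10 (1.85), with adjusted p from 0.0008 to 0.027. Against DBA males, the effect was more negative for C8a (-1.09), Mup21 (-1.88), Mup17 (-5.28), Mup15 (-5.88), Hsd3b5 (-3.34), Moxd1 (-10.31), Cyp7b1 (-1.87), Cyp39a1 (-1.73), Ccnb1 (-3.73), Spc25 (-1.45), Igha (-4.26), Saa1 (-5.33), Saa2 (-6.02) and Orm1 (-1.0), with adjusted p from 0.00021 to 0.048. Against DBA males, the effect was more positive for Cyp2b9 (4.72), Slc37a4 (1.03), Gbp3 (1.66), Parp16 (1.13), Ildr2 (2.77) and Mogat1 (2.70), with adjusted p from 0.00016 to 0.042. Against the mean of the other 3 classes, the effect was more negative for Mup21 (-2.31), Mup17 (-4.11), Mup14 (-3.23), Dpy19l3 (-1.18), C4a (-1.53), Ccnb1 (-3.16), Spc25 (-1.23), Igha (-2.62) and Saa1 (-3.33), with adjusted p from 0.00028 to 0.047. Against the mean of the other 3 classes, the effect was more positive for Cyp2b9 (4.83), Gbp3 (1.51), Tgtp2 (2.00), Mcc (0.73), Dio3os (2.04) and Klf10 (1.48), with adjusted p from 0.004 to 0.042. With the title-number block, 0 of 9, 4 of 20 and 2 of 15 of these differences passed.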

How the results depend on the processing

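The 748 genes (260 higher, 488 lower) became 335 (134, 201) with only the 18 B6M libraries, 238 (96, 142) with the title-number block in limma voom, 213 (51, 162) with same-number libraries summed and 1715 (775, 940) with quality weights; without the low-count filter there were 469, of which 275 were lower. The share of higher calls was 34.8%, against 45.2% with quality weights and 23.9% with sums. Leaving out 1 library gave 456 to 983 genes, 147 to 415 higher and 308 to 568 lower. The difference from B6 females (124) became 47 with only the libraries compared, 257 with DESeq2, 45 without the filter, 3 with the block, 1277 with quality weights and 5 with sums (63 to 160 leaving out 1 library). That from DBA males (239) became 395 with DESeq2, 133 without the filter, 48 with the block and 41 with sums (136 to 355), and that from the other 3 classes (144) 262, 51, 11 and 8 in the same order and 585 with quality weights (60 to 204). The 963 sex-biased genes became 3849 with no fold minimum and 309 at 4-fold. The causes of these moves were not tested. Among the 285 results, no log2 fold change that passed in the main fit changed sign in its alternatives. List counts, list medians and fold changes that did not pass were not checked for a reversal in this way. Some list medians near 0 did change sign, as for lymphocyte markers (0.05, lowest -0.85) and amino acid catabolism (-0.01, highest 0.13). Of the 6500 alternatives, 5597 kept the side of the threshold or stayed close, 588 lost the call, 4 gained it and 311 moved. Of the 94 named genes called in the main comparison, 58 passed in every leave-out and 45 with the block. With only the 18 B6M libraries fitted, calls lost included Hsd3b5, Selenbp2, Cyp2b9, Vldlr, Stard4, Fdft1, Cidea, Cdkn1a, Lyz2, Col3a1 and Tff3. Those of Mup21, Mup17 and C9 stayed. The calls of Stard4, Fdft1 and Cdkn1a were also lost with only the libraries compared. No paired analysis was possible because the low and control groups share no title numbers, so each number lies within 1 diet, and number and diet cannot be fully separated. Levels under about 1 CPM rest on few counts.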
